A study of Mus musculus with 6 samples.

Results

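The nuclear genome encodes most of the protein subunits of respiratory complexes III and IV and of the ATP synthase, complex V, and their mRNA levels are described here in mouse testis. Members were taken by name: every protein-coding gene whose symbol begins with Uqcr, with Atp5, or with Cox4 to Cox8 followed by a letter, together with Cyc1, Cycs and Cyct. This gave 46 of the 51826 genes in the count tables, with 9 in complex III, 18 in complex IV, 17 in complex V and both cytochromes c. A further 8 symbols that match the same pattern are annotated as pseudogenes and were left out. The group was chosen after lower knockout values had been seen in these same 6 samples. The knockout against wild-type values of the members are therefore given as a description, with no test, and the calls below are read only as counts.

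Testis RNA of C57BL/6J mice at 8 weeks of age was sequenced in bulk, in 3 samples labelled wild-type and 3 labelled KIFC1 knockout. KIFC1 is a kinesin-14 motor protein, and the study title places it in meiotic recombination and male fertility. The labels do not describe the knockout allele, the cells in which it acts, or whether each sample is a different animal. A p-value below is therefore set against the spread of these 6 samples, part of which may be technical.

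Complex III takes electrons from ubiquinol and hands them to cytochrome c, a small soluble haem protein of the intermembrane space. Complex IV, cytochrome c oxidase, passes them on to oxygen, and complex V uses the resulting proton gradient to make ATP. Each complex also contains protein encoded by the mitochondrial genome, which must be assembled with the nuclear-encoded subunits. Male germ cells are known for exchanging several common subunits for germ-line forms: Cox6b2 for Cox6b1, Cox7b2 for Cox7b, Cox8c for Cox8a, and the testis cytochrome c Cyct for the somatic Cycs.

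Kifc1 itself had 15.5, 16.1 and 14.7 counts per 1000000 counts (CPM) in the wild-type libraries, against 0.326, 0.737 and 0.281 CPM in the knockout libraries (log2 fold change -5.09 ± 0.35 SE, adjusted p = 0.0038, edgeR quasi-likelihood test), which matches the labels. Libraries held 29274603 to 38703606 counts. Markers of germ cells, Sertoli cells and Leydig cells were present in every sample, whereas the epididymal genes Lcn5 and Crisp1 were at 0 in all 6. The summed level of 5 elongating spermatid markers was 15525 to 17428 CPM in wild type and 10509 to 11858 CPM in knockout, and 2 of the 5 were called lower with none at 0. Spermatocyte markers summed to 2481 to 2673 CPM in wild type and 2321 to 2846 CPM in knockout, and round spermatid markers to 744 to 890 CPM and 752 to 1001 CPM. Blood genes, 3 in number, summed to 47.13 to 84.18 CPM in wild type and 29.04 to 46.83 CPM in knockout with 1 called lower. The sums of the groups overlapped in the other marker lists, but single genes in them were called. Sycp1 of spermatocytes was called higher, at a log2 fold change of 0.90. The other spermatocyte markers, from -0.29 for Ccna1 to 0.44 for Sycp3, were not called. Sohlh1 of spermatogonia and Amhr2 of Sertoli cells were called lower, at -1.14 and -0.71. All other markers in their lists had positive values and were not called. Those values ran from 0.04 for Dmrt1 to 0.60 for Kit in spermatogonia, and from 0.19 for Rhox5 to 1.16 for Sox9 in Sertoli cells. Over all genes tested 5.12% were called lower and 3.11% higher. Deviations of single genes from their mean over libraries also followed exon GC content, with a Spearman rho over 13171 genes of 0.266 to 0.533 in the wild-type libraries and of -0.676 to -0.127 in the knockout libraries. With exon length the rho was -0.389, -0.136 and 0.0831 in the wild-type libraries and 0.295, 0.107 and 0.0619 in the knockout libraries. The main member results below are therefore also given after these trends, and those with exon length, were smoothed per library and removed. The part of the marker differences in the member values was not tested. In such bulk samples, fewer cells of a type and less RNA per cell cannot be told apart.

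The testis and common forms of a subunit are encoded by separate genes with different coding sequences. The 3 complex IV pairs are printed because the results on isoforms turn on them. Each line gives the coding sequence of one transcript from GENCODE M21 on GRCm38, from start to stop codon, and capitals mark the bases that differ from the partner gene or have no counterpart in it.
Cox6b2: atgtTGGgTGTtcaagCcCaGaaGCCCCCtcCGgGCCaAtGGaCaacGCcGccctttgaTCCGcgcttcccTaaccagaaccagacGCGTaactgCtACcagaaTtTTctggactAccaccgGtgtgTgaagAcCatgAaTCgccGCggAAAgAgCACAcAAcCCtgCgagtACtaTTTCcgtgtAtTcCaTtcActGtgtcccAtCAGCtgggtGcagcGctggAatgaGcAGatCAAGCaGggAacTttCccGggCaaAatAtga
Cox6b1: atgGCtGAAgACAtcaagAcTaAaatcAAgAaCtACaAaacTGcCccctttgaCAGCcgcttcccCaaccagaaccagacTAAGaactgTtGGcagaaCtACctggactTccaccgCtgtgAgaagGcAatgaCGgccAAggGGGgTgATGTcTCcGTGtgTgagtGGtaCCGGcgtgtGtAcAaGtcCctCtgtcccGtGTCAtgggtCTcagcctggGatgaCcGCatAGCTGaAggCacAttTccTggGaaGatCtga
Cox7b2: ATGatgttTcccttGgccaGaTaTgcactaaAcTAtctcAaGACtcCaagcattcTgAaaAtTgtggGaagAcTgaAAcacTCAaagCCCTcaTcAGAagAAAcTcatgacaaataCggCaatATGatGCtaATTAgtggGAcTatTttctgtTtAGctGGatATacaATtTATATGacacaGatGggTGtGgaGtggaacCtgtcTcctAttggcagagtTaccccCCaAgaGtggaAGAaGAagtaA
Cox7b: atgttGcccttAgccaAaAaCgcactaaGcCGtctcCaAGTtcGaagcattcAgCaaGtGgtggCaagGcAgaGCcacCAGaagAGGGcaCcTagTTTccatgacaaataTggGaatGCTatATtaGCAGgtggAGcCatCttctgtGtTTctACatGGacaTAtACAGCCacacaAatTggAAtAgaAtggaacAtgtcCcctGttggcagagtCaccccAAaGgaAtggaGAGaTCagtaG
Cox8c: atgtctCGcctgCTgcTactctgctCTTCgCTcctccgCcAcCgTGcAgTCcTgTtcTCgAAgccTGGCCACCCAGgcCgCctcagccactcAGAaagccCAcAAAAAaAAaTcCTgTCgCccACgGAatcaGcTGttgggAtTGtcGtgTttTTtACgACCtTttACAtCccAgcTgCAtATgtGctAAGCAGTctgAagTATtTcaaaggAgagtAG
Cox8a: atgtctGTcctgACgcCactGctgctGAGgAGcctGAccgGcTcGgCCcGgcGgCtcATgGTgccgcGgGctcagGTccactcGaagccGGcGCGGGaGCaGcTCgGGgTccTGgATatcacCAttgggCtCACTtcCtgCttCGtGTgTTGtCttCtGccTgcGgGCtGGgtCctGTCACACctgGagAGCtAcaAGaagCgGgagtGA
Identity over aligned bases was 64.6% for Cox6b2 and Cox6b1, 65.4% for Cox7b2 and Cox7b, and 58.5% for Cox8c and Cox8a. The proteins they encode were identical at 53.5%, 50% and 33.8% of aligned residues. The cytochromes c were closer to each other, with 78.0% of bases and 86.7% of residues identical. None of the 4 testis genes shared a stretch of 50 bases with the annotated transcripts of another gene, so reads of that length have a single annotated origin in them. Cycs is different, since 26.1% of its 50-base stretches recur in other annotated genes, and its level is uncertain to that extent.

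Cox8c was the most abundant member in every sample. Levels are compared between genes as CPM per kilobase (kb) of exon, where the exon length is the union of all annotated exons, so a gene with long exons that the testis does not use comes out too low. On that scale Cox8c averaged 1006 ± 60.8 CPM per kb in wild type (SD, n = 3), and Cox6b2 came next at 182 ± 12.9. Next in order, Cox7a2 at 158 ± 37.3, Cox6a1 at 148 ± 7.45, Uqcrq at 139.7 ± 49.7 and Cox4i1 at 138 ± 33.3 CPM per kb, lay within each other's spread. Cox7b2 and Cyct ranked 9 and 13 at 108 ± 34.5 and 82.3 ± 19 CPM per kb. All 4 testis forms thus stood among the 13 most abundant of the 46 members, while their common counterparts Cox6b1, Cox8a, Cycs and Cox7b ranked 28, 31, 41 and 42.

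The isoforms known from muscle, heart or lung were at or near 0. Cox7a1, the heart and muscle form of subunit 7a, was at 1.81 ± 0.903 CPM per kb in wild type. Cox4i2, the lung form of subunit 4, was at 0.494 ± 0.151 and Cox6a2, the muscle form of subunit 6a, at 0.338 ± 0.106 CPM per kb. Cox8b had 0 counts in all 6 libraries, which allows up to 0.0775 to 0.102 CPM, taking 3 counts of each library's total as the limit, for counting error only. Cox4i2, Cox6a2 and Cox8b did not pass the filter on low counts and were not fitted, which left 43 members. Cox7a1 passed it and was not called, at a log2 fold change of -0.11 ± 0.46 (SE), or 0.31 with the library trends removed.

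**Figure D1:**
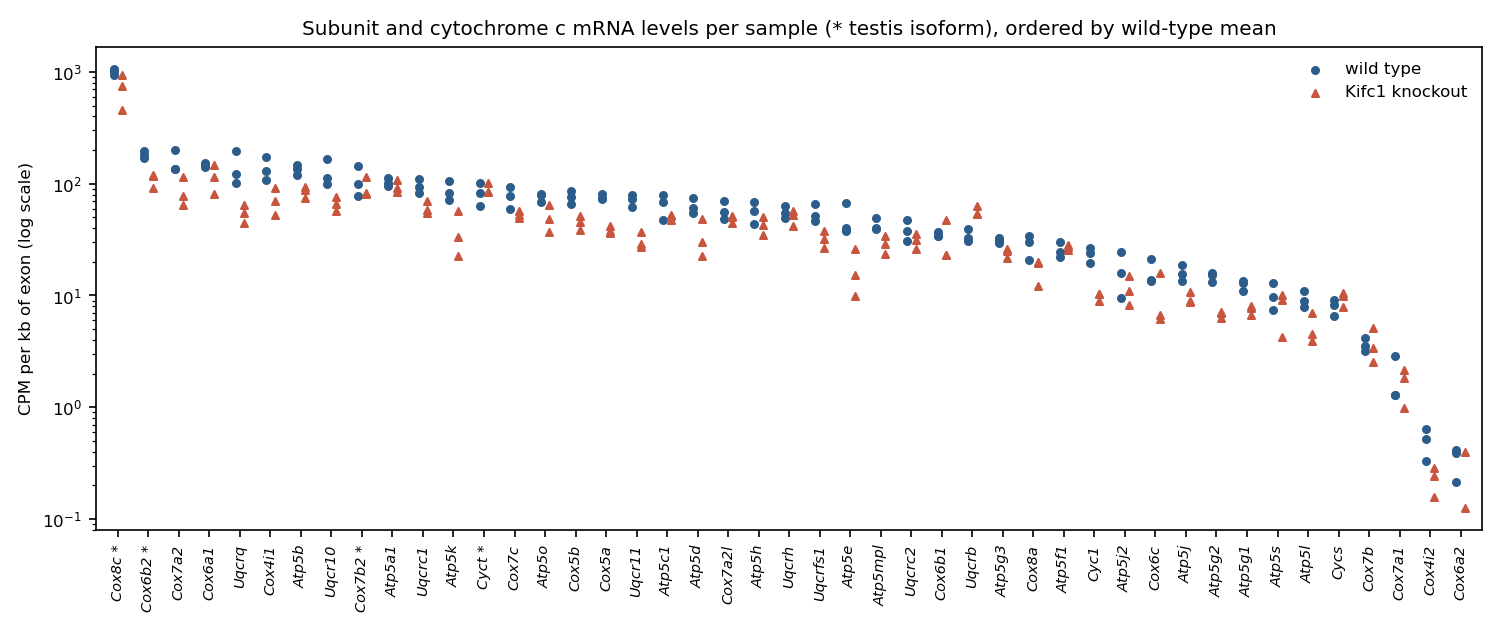
Level of each member in each sample, as CPM per kb of exon on a log scale, ordered by the wild-type mean; circles are wild-type and triangles knockout samples, and asterisks mark the testis forms. Cox8c stands above all other members, Cox8b (0 in all samples) is not drawn, and the Cox6a2 value of 0 in knockout sample 3 cannot be shown on this scale.

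In each of the 4 pairs the testis form exceeded the common form in all 6 samples. Per kb of exon, Cox6b2 stood at 5.74, 4.91 and 4.99 times Cox6b1 in wild type and at 3.95, 2.51 and 5.05 times in knockout. Cox7b2 stood at 41.5, 23.9 and 24.4 times Cox7b in wild type and at 24.4, 22.7 and 31.8 times in knockout. The ratio of Cox8c to Cox8a was 51.4, 29.8 and 31.2 in wild type and 38.0, 38.0 and 47.8 in knockout. Cyct had 11.2, 9.97 and 9.64 times the level of Cycs in wild type and 8.51, 9.69 and 10.8 times in knockout. These ratios rest on the annotated exon lengths, 655 bases for Cyct and 3404 for Cycs. As CPM alone, Cyct stood at 2.16, 1.92 and 1.85 times Cycs in wild type and 1.64, 1.86 and 2.09 times in knockout. In the other pairs the CPM ratios ran from 3.94 to 8.98 for Cox6b2, 10.1 to 18.5 for Cox7b2 and 22.1 to 38.0 for Cox8c. Wild-type sample 1 had the highest ratio of all 6 samples in each of the 4 pairs, and the groups overlapped in every pair.

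In no pair did the isoform ratios of the groups separate, before or after removal of the library trends. On the log2 scale the knockout mean minus the wild-type mean was -0.50 for Cox6b2 over Cox6b1, against an SD within groups of 0.37. The same difference was -0.15 for Cox7b2 over Cox7b (SD 0.37), 0.17 for Cox8c over Cox8a (SD 0.34) and -0.09 for Cyct over Cycs (SD 0.15). With the library trends removed the differences were -0.26, -0.50, -0.26 and 0.00443, so that the sign turned for the Cox8 and cytochrome c pairs. The sign also turned for the Cox7b pair, to 0.11, without wild-type sample 1.

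**Figure D2:**
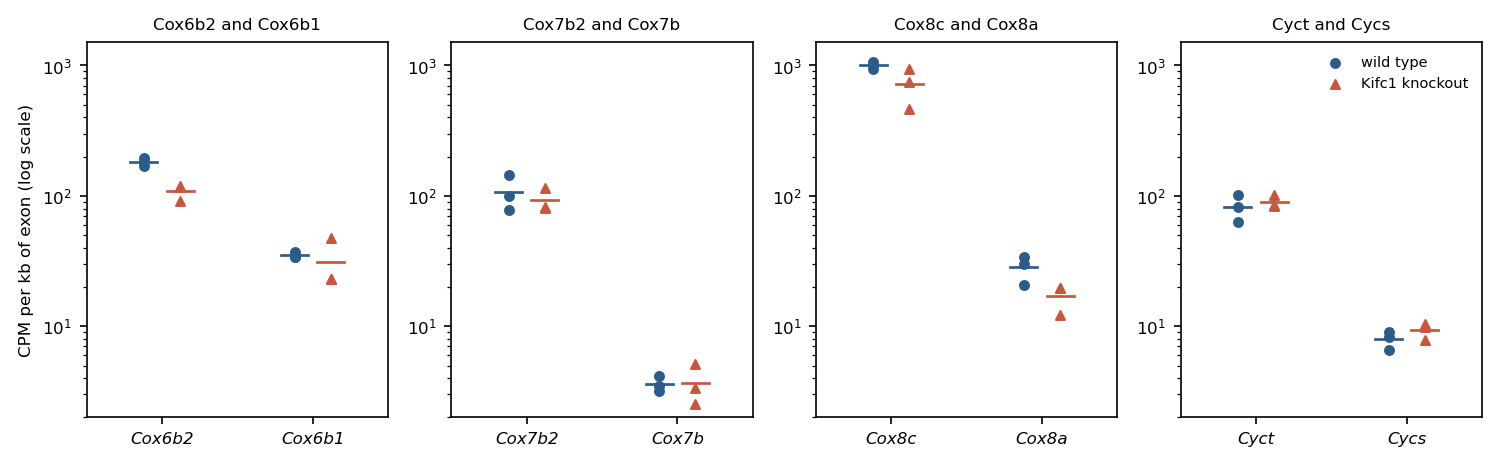
Levels of each testis form and its common counterpart in CPM per kb of exon (log scale); circles are wild-type and triangles knockout samples, and bars are group means. The testis form is above the common form in all 6 samples of each pair, from about 5.21 times for Cox6b2 to 37.5 times for Cox8c in wild type.

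Knockout samples held less of the nuclear-encoded mRNA of these complexes in sum. Summed over all 46 members, wild-type samples had 5637, 4897 and 4253 CPM and knockout samples 2939, 3401 and 3515 CPM, so the groups did not overlap and the knockout mean was 66.6% of the wild-type mean. The sum was 60.9% of wild type for complex III, 64.6% for complex IV and 69.7% for complex V. Single members were then counted in the edgeR fit over all 21518 genes tested, at a Benjamini-Hochberg adjusted p under 0.05. Of the 43 members fitted, 15 were called lower and 1 higher, where 8.23% of all genes tested were called, 5.12% lower and 3.11% higher. The DESeq2 Wald test called 19 members lower and 1 higher, where it called 9.22% of 19007 genes lower and 8.05% higher. As the members were chosen on this contrast, nothing is read from these shares. Their median log2 fold change was -0.62, against -0.01 over all genes tested, and 38 of the 43 values were negative. In 24 members all knockout samples lay below all wild-type samples, as in 18.1% of all genes tested, and in 1 member all lay above, as in 14.6%.

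The number of calls depended on single libraries, and the median log2 fold change moved less. Left out in turn, wild-type samples 1, 2 and 3 gave 0, 0 and 5 members called lower, and knockout samples 1, 2 and 3 gave 0, 21 and 5. Over all genes the same fits called 5, 1, 425, 1, 3149 and 327 genes, where the fit with all samples called 1770. The members' median log2 fold change stayed between -0.71 and -0.48 in these fits. With the library trends removed it was -0.47, against 0.01 over all genes tested, with 38 values negative, and all 15 members called lower kept a negative sign. The 5 positive values there were those of Uqcrb, Cox7a1, Cox6a1, Atp5a1 and Cox6b1, against Uqcrb, Cycs, Cyct, Atp5f1 and Cox7b before. Only Cox5a was called there, in a fit that called 17 of 21518 genes (0.079%), 13 lower (0.0604%) and 4 higher (0.0186%). All knockout samples lay below all wild-type samples in 21 members on that scale (14.5% of all genes tested) and all above in 2 (13.0%). Over the 17 fits that were run, 35 members were negative in each fit that included them, among them Cox4i2 and Cox6a2, which passed the filter in only 5 and 1, and Uqcrb was positive in all.

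**Figure D3:**
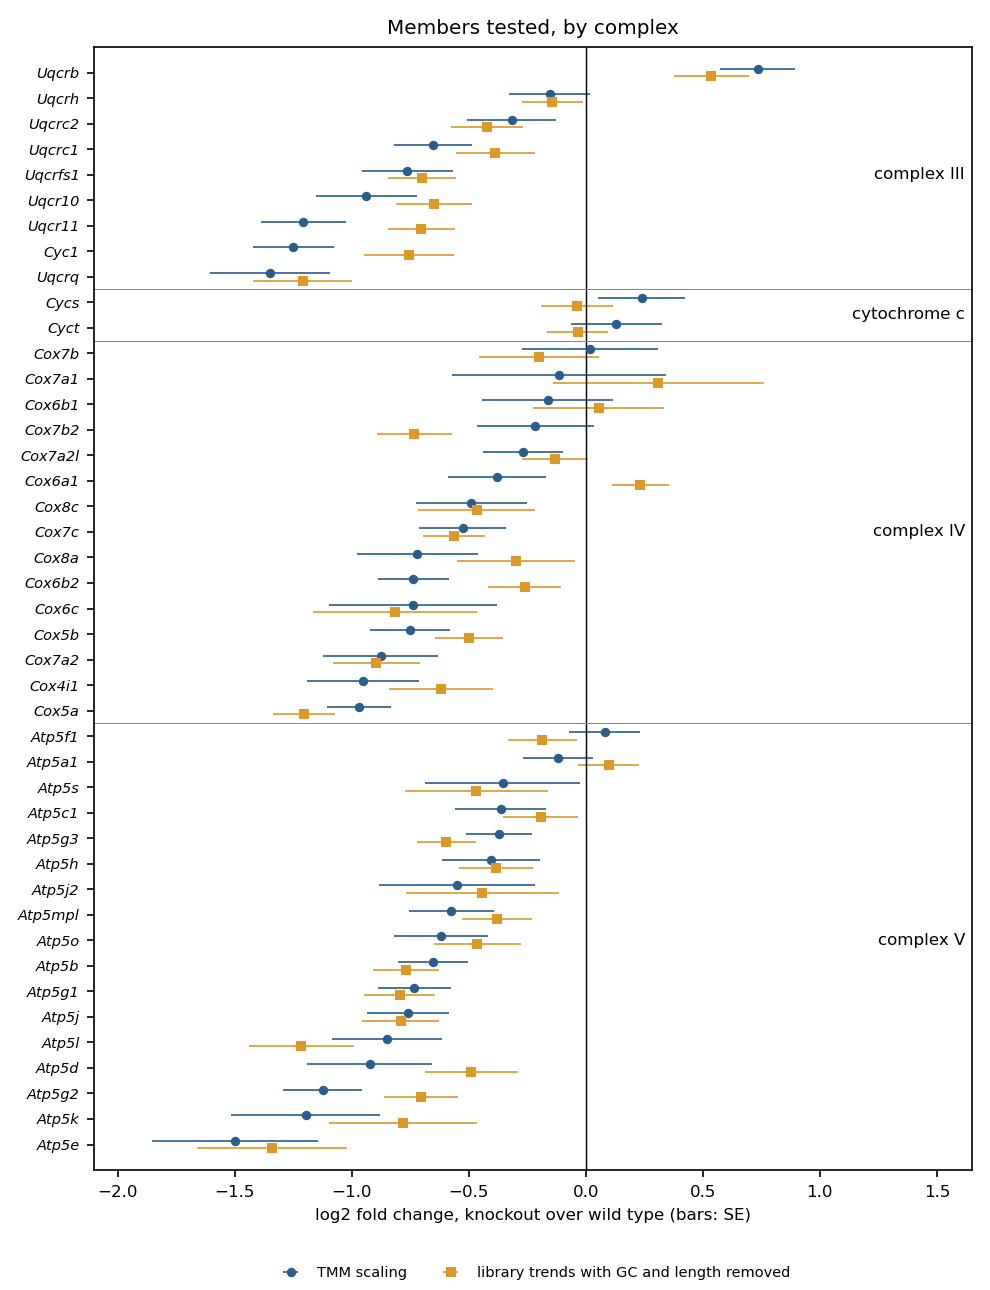
Log2 fold change of knockout over wild type (horizontal axis) with its standard error for the 43 members fitted, grouped by complex; circles are from the fit with TMM scaling and squares from the fit without the library trends (GC content, exon length). In both, 38 of 43 values lie left of 0, though not for the same members, and Uqcrb lies farthest to the right.

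Complex III had the lowest median of the 3 complexes. Of its 9 subunits 6 were called lower and 1 higher, where 5.12% of all genes tested were called lower and 3.11% higher. The median log2 fold change of the 9 was -0.76, or -0.65 with the trends removed. Coordinates of members are 1-based gene spans on GRCm38 (mm10), exons and introns included. Both nuclear-encoded electron-carrying subunits fell. Cyc1 (ENSMUSG00000022551, chromosome 15, 76343523 to 76346260, plus strand) encodes cytochrome c1, the haem subunit that passes electrons to cytochrome c, and stood at 57.5, 51.3 and 41.7 CPM in the 3 wild-type samples and 19.1, 22.1 and 22 CPM in the 3 knockout samples. The knockout samples were close together and all below the lowest wild-type sample, for a log2 fold change of -1.25 ± 0.17 (SE), or -0.76 with the trends removed. Uqcrfs1, the Rieske iron-sulfur subunit, had a log2 fold change of -0.76 ± 0.19. Of the core proteins that face the matrix, Uqcrc1 was called lower at -0.65 ± 0.17 and Uqcrc2 was not called at -0.32 ± 0.19.

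The 5 small subunits of complex III went both ways. Uqcrq (ENSMUSG00000044894, chromosome 11, 53427922 to 53430831, minus strand), a small subunit next to cytochrome b, stood at 359, 222 and 186 CPM in the 3 wild-type samples and 81.5, 119 and 101 CPM in the 3 knockout samples. Wild-type sample 1 was far above the other 2, but all knockout samples lay below all wild-type samples, and the log2 fold change was -1.35 ± 0.26, or -1.21 with the trends removed. Uqcr11 and Uqcr10 were also called lower, at -1.21 ± 0.18 and -0.94 ± 0.22, while the hinge protein gene Uqcrh, at -0.16 ± 0.17, was not called. Uqcrb (ENSMUSG00000021520, chromosome 13, 66900617 to 66905378, minus strand), which encodes another small subunit beside cytochrome b, was the only member called higher. Its values were 34.1, 28.4 and 27 CPM in the 3 wild-type samples and 47.3, 46.5 and 55.1 CPM in the 3 knockout samples, without overlap, for a log2 fold change of 0.73 ± 0.16, or 0.54 with the trends removed. Because 25.5% of its 50-base stretches recur in other annotated genes, its level is uncertain: the reads may come in part from those genes.

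Neither cytochrome c gene was called in either direction by edgeR or DESeq2, and 0 of them had an unadjusted p under 0.05 in edgeR. Of all 21518 genes tested, 3220 were lower and 2610 higher at that unadjusted threshold. Cyct (ENSMUSG00000056436, chromosome 2, 76353942 to 76360450, minus strand) stood at 66.4, 53.7 and 41.5 CPM in the 3 wild-type samples and 54.7, 66.4 and 55.8 CPM in the 3 knockout samples, with overlapping groups. Cycs (ENSMUSG00000063694, chromosome 6, 50562563 to 50566538, minus strand) stood at 30.7, 28 and 22.4 CPM in the 3 wild-type samples and 33.4, 35.6 and 26.7 CPM in the 3 knockout samples, and its groups overlapped too. Their log2 fold changes of 0.13 ± 0.19 and 0.24 ± 0.19 turned to -0.03 and -0.04 with the trends removed.

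In complex IV, 4 of the 15 subunits fitted were called lower and none higher, against 5.12% and 3.11% of all genes tested. The median log2 fold change was -0.53, or -0.47 with the trends removed. Among the 11 common subunits 3 were called, all lower. Cox5a (ENSMUSG00000000088, chromosome 9, 57521274 to 57532426, plus strand), a matrix-side subunit, stood at 156, 171 and 152 CPM in the 3 wild-type samples and 76.8, 87.7 and 80 CPM in the 3 knockout samples. The knockout samples lay within a narrow range at 51.1% of the wild-type mean. The log2 fold change was -0.97 ± 0.14, or -1.20 with the trends removed, where it was the only member called. An antisense neighbour, Gm26631, overlaps 269 bases of its exons, and reads of the 2 genes cannot be told apart without the strand.

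Cox4i1 (ENSMUSG00000031818, chromosome 8, 120668222 to 120674207, plus strand), whose product joins the enzyme early in its assembly, stood at 270.2, 202 and 169 CPM in the 3 wild-type samples and 81.6, 142 and 108 CPM in the 3 knockout samples. All knockout samples lay below all wild-type samples, for a log2 fold change of -0.95 ± 0.24, and with the trends removed, at -0.62, the groups overlapped. Cox5b, a zinc-binding subunit, was called lower at -0.75 ± 0.17. The other common subunits were not called, from -0.88 ± 0.25 for Cox7a2 to 0.02 ± 0.29 for Cox7b. They include Cox6c at -0.74 ± 0.36, Cox7c at -0.53 ± 0.19 and Cox7a2l at -0.27 ± 0.17. Cox6a1 (ENSMUSG00000041697, chromosome 5, 115345642 to 115348981, minus strand), a subunit at the dimer contact, stood at 106, 108 and 98.2 CPM in the 3 wild-type samples and 80.3, 56.8 and 103 CPM in the 3 knockout samples. Its groups overlapped, at a log2 fold change of -0.38 ± 0.21. With the trends removed the value turned to 0.23 and all knockout samples lay above all wild-type samples. It has the highest exon GC content of the members, 62.8%.

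Of the testis forms of complex IV, Cox6b2 was called lower and the other 2 were not. Cox6b2 (ENSMUSG00000051811, chromosome 7, 4751792 to 4753094, minus strand), a subunit on the intermembrane side, stood at 217, 201 and 188 CPM in the 3 wild-type samples and 101, 132 and 130.0 CPM in the 3 knockout samples, for a log2 fold change of -0.74 ± 0.15. No sample overlapped, but with the trends removed the value was -0.26 and knockout sample 2 reached the wild-type range. Cox8c (ENSMUSG00000043319, chromosome 12, 102899316 to 102900526, plus strand), a form of the small membrane subunit 8, stood at 487, 463 and 432 CPM in the 3 wild-type samples and 340.2, 211 and 433 CPM in the 3 knockout samples. Knockout sample 3 matched the lowest wild-type sample and knockout sample 2 was far below it, for a log2 fold change of -0.49 ± 0.24, or -0.47 with the trends removed. Cox7b2 (ENSMUSG00000049387, chromosome 5, 71442824 to 71548205, minus strand) stood at 78.8, 54.3 and 42.2 CPM in the 3 wild-type samples and 44.3, 62.8 and 43.9 CPM in the 3 knockout samples, with overlap. Its log2 fold change was -0.21 ± 0.25, against -0.73 with the trends removed, where the groups no longer overlapped. It has the lowest exon GC content of the members, 36.7%.

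None of the common counterparts in complex IV was called with all 6 samples. Cox6b1 (ENSMUSG00000036751, chromosome 7, 30616861 to 30626151, minus strand) stood at 24.1, 26.1 and 24.1 CPM in the 3 wild-type samples and 16.4, 33.6 and 16.4 CPM in the 3 knockout samples, with knockout sample 2 the highest of all 6. Its log2 fold change was -0.16 ± 0.28, or 0.05 with the trends removed, and -0.59, which was called, without knockout sample 2. Cox8a (ENSMUSG00000035885, chromosome 19, 7215153 to 7217616, minus strand) stood at 12.8, 21 and 18.7 CPM in the 3 wild-type samples and 12.1, 7.51 and 12.3 CPM in the 3 knockout samples, with every knockout sample below the lowest wild-type sample, 2 of them narrowly. The fitted value for Cox8a was -0.72 ± 0.26, or -0.30 with the trends removed, and it was not called. Cox7b (ENSMUSG00000031231, chromosome X, 106015700 to 106022450, plus strand) stood at 4.25, 5.09 and 3.87 CPM in the 3 wild-type samples and 4.07, 6.2 and 3.09 CPM in the 3 knockout samples, for a log2 fold change of 0.02 ± 0.29 that was -0.20 with the trends removed.

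In complex V, 5 of 17 genes were called lower and none higher, against 5.12% and 3.11% of all genes tested. The median log2 fold change was -0.62, or -0.49 with the trends removed. The soluble F1 head, where ATP is made, is built from 5 of these genes. All 5 had negative log2 fold changes and 2 were called lower. In 3 of them all knockout samples lay below all wild-type samples, as in 18.1% of all genes tested. Atp5e (ENSMUSG00000016252, chromosome 2, 174461072 to 174464105, minus strand) encodes the epsilon subunit of the central shaft and stood at 117, 71 and 65.9 CPM in the 3 wild-type samples and 17.5, 45.6 and 26.7 CPM in the 3 knockout samples. It had the lowest log2 fold change of all members, -1.50 ± 0.35, or -1.34 with the trends removed, and its groups did not overlap in either. Knockout sample 2 lay well above the other knockout samples. Without knockout sample 2 its log2 fold change was -1.94 and still called. The call was lost when any of the other 5 samples was left out, at values from -1.65 without wild-type sample 3 to -1.17 without wild-type sample 1, and also without the filter on low counts. Atp5b, the catalytic beta subunit, was called at -0.65 ± 0.15. Its partner Atp5a1, the alpha subunit, was not called at -0.12 ± 0.15, a sign that turned with the trends removed (0.10). The gamma and delta subunit genes Atp5c1 and Atp5d stood at -0.36 ± 0.19 and -0.92 ± 0.27 and were not called, although the groups of Atp5d did not overlap.

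The c ring, which turns in the membrane, is made from a single mature protein encoded by 3 genes. Atp5g2 and Atp5g1 were called lower, at log2 fold changes of -1.12 and -0.73. Atp5g3, at -0.37 ± 0.14, was not called although its groups did not overlap. Of the wild-type level per kb, Atp5g3 held the most at 31.3 ± 1.5 CPM per kb, against 14.8 ± 1.42 for Atp5g2 and 12.5 ± 1.38 for Atp5g1. Atp5g2 shares 38.3% of its 50-base stretches with other genes, and its level is uncertain to that extent.

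Among the 4 peripheral stalk genes, Atp5j was called lower at -0.76 ± 0.18. Atp5o, the oligomycin sensitivity protein, stood at -0.62 ± 0.20 and Atp5h at -0.40 ± 0.21, neither of them called, and Atp5o shares 41.6% of its 50-base stretches with other genes. Atp5f1 (ENSMUSG00000000563, chromosome 3, 105942698 to 105960099, minus strand), subunit b of the stalk, had the highest log2 fold change of the complex before the trends were removed, and Atp5a1 had it after. It stood at 122, 101 and 91.3 CPM in the 3 wild-type samples and 104, 112 and 117 CPM in the 3 knockout samples, with overlap, for a log2 fold change of 0.08 ± 0.15 that was -0.19 with the trends removed.

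None of the 4 small membrane subunits was called by edgeR with all 6 samples, although 3 were lower at an unadjusted p under 0.05. Of all 21518 genes tested, 3220 were lower and 2610 higher at that threshold. DESeq2 called Atp5k and Atp5l lower. Atp5k (ENSMUSG00000050856, chromosome 5, 108433244 to 108434448, minus strand), subunit e, which acts in the pairing of 2 synthases, stood at 65.8, 50.8 and 43.7 CPM in the 3 wild-type samples and 14, 35.2 and 20.7 CPM in the 3 knockout samples. Knockout samples 1 and 3 were lowest, the groups did not overlap, and the log2 fold change was -1.20 ± 0.32, or -0.78 with the trends removed, where they overlapped. Atp5l (ENSMUSG00000038717, chromosome 9, 44912557 to 44920742, minus strand), subunit g, the partner of subunit e, stood at 71, 57.7 and 50.5 CPM in the 3 wild-type samples and 25.5, 44.8 and 29.2 CPM in the 3 knockout samples, without overlap. For Atp5l the log2 fold change was -0.85 ± 0.24, or -1.21 with the trends removed. Without knockout sample 2, edgeR called Atp5k and Atp5l lower, at -1.62 and -1.13, and with a filter of 1 CPM in 3 samples it called Atp5k, at -1.18. The others, Atp5mpl and Atp5j2, stood at -0.57 ± 0.18 and -0.55 ± 0.33, and Atp5s, coupling factor B, at -0.36 ± 0.33.

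Within the groups the members moved with the library. Wild-type sample 1 was the highest wild-type sample in 33 of the 43 members fitted and wild-type sample 3 the lowest in 38. Knockout sample 2 was the highest knockout sample in 29 and knockout sample 1 the lowest in 28. The median member stood at 0.20, -0.0036 and -0.22 on the log2 scale relative to the wild-type mean in the wild-type samples, and at -0.81, -0.42 and -0.58 in the knockout samples. With the library trends removed these medians were 0.13, 0.01 and -0.14 in wild type and -0.65, -0.29 and -0.58 in knockout.

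Members with GC-rich exons had lower fold changes before the trends were removed. Across the 43 members, whose values all come from the same 6 libraries, the log2 fold change had a Pearson r of -0.484 and a Spearman rho of -0.451 with exon GC content. With the trends removed the same values were 0.109 and 0.0954. The correlation of the log2 fold change with exon length was near 0, with an r of -0.0445 and a rho of -0.0717, against -0.297 and -0.267 with the trends removed. It compares the members with each other only. As a group they are short, with a median exon length of 1587 bases against 3239 over all genes tested. The part of the library trends with exon length in the member values was not tested. Before the trends were removed, the 5 positive values, of Uqcrb, Cycs, Cyct, Atp5f1 and Cox7b, were all at 41.0% to 42.3% GC. Cox5a and Atp5g3 also lie in that GC range with negative values.

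**Figure D4:**
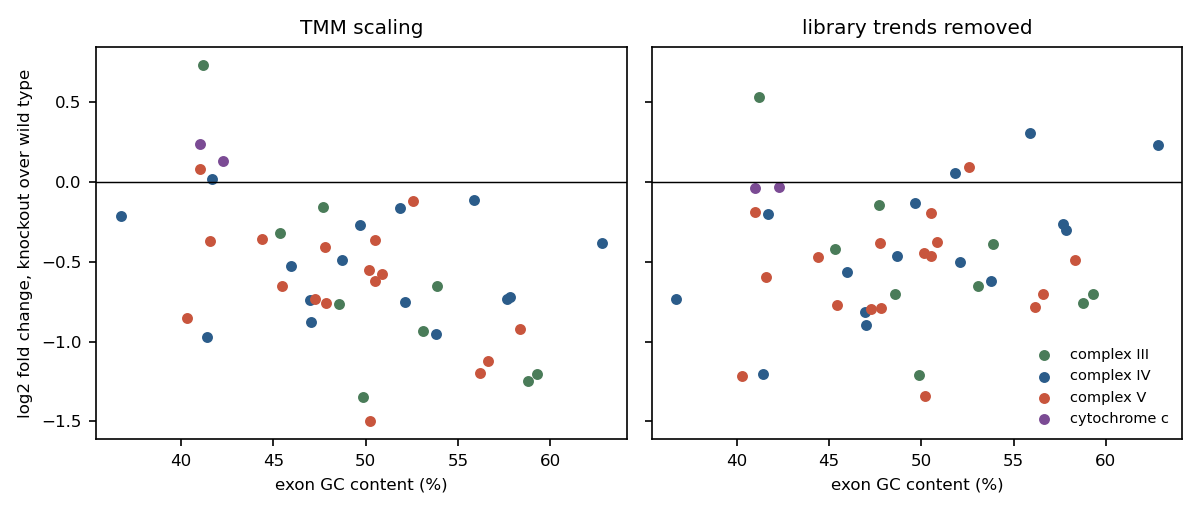
Log2 fold change of knockout over wild type against exon GC content (%) for the 43 members fitted, coloured by complex, with TMM scaling (left) and with library trends removed (right). The slope seen at the left (r = -0.484) is not seen at the right (r = 0.109). On each side 38 of the 43 values are below 0, though not for the same members.

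The subunits that the mitochondrial genome adds to the same complexes were higher in knockout, opposite to the nuclear-encoded ones. All 6 were called higher: mt-Cytb of complex III, mt-Co1, mt-Co2 and mt-Co3 of complex IV, and mt-Atp6 and mt-Atp8 of complex V. Over all genes tested 3.11% were called higher. For complex III the mitochondrially encoded mRNA stood at 0.344, 0.715 and 0.894 times the summed nuclear-encoded CPM in wild type, and at 13.2, 1.86 and 8.46 times in knockout. In complex IV these ratios were 2.34, 3.30 and 3.54 in wild type and 21.8, 7.23 and 15.5 in knockout. The complex V ratios were 0.0581, 0.0961 and 0.129 in wild type and 3.32, 0.271 and 1.67 in knockout. The groups did not overlap in any complex, and knockout sample 2 was the knockout sample closest to wild type. Mitochondrial genes took 0.661% to 0.935% of all counts in the wild-type libraries and 5.74%, 1.54% and 4.29% in the knockout libraries. Without these genes in the totals, 14 members were called lower and the members' median was -0.60. None of the 6 was called with the trends removed, where mt-Co3 had the smallest log2 fold change, 0.54, and mt-Atp6 the largest, 3.76.

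**Figure D5:**
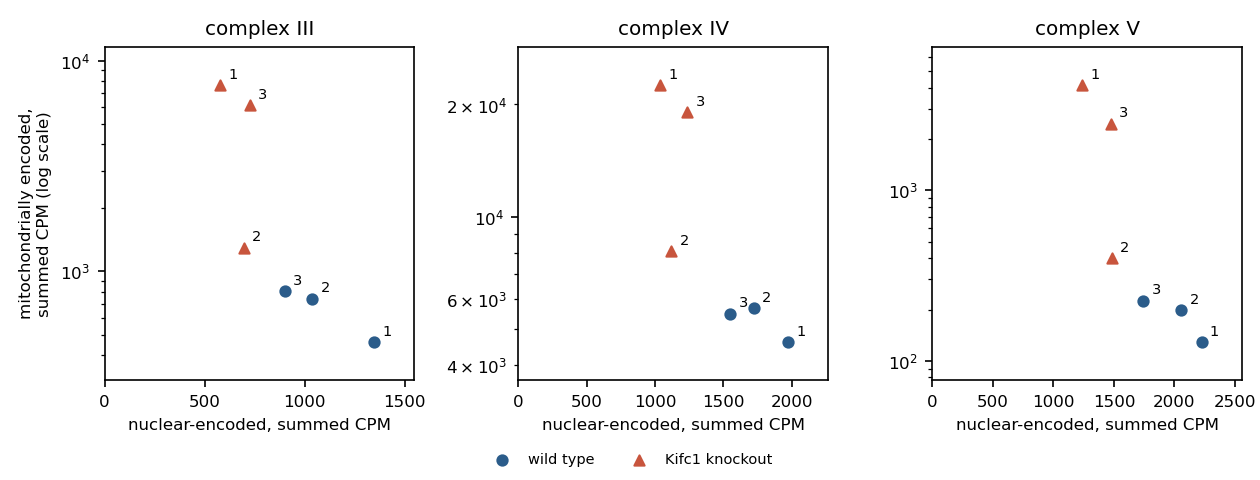
Summed CPM of the mitochondrially encoded mRNAs (vertical, log scale) against the summed CPM of the nuclear-encoded members (horizontal) of complexes III, IV and V; each point is a sample with its replicate number, circles wild type and triangles knockout. Knockout samples lie at the upper left in each panel, with knockout sample 2 nearest to wild type.

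Most genes for the assembly of these complexes were not called. Of 25 complex IV assembly and associated genes 24 were tested, and 6 were called lower and none higher, where 5.12% of all genes tested were called lower and 3.11% higher, with a median log2 fold change of -0.32. The clearest were Cox14, needed for the mitochondrially encoded subunit 1, at -1.44 ± 0.23 (adjusted p = 0.017), and the copper carrier Sco2 at -1.16 ± 0.21 (adjusted p = 0.020, both edgeR). Of 7 complex III assembly genes 1 was called, Uqcc2 at -1.05 ± 0.27, while Lyrm7 stood at 0.58 ± 0.18 without a call, and the median was -0.0018. Among 6 genes for assembly and regulation of complex V, Fmc1 was called lower at -1.25 ± 0.24 and Tmem242 stood at -0.35 ± 0.20, with a median of -0.11. With the trends removed none of these assembly genes was called.

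Upstream sequences were read for 33 of the 46 members from RefSeq on GRCm38.p6, as the 250 bases before the gene start. The cytochromes c are shown as the testis and somatic pair with the most unlike matches, chosen after the matches were seen. Capitals mark matches to the motifs named below, and both genes lie on the minus strand, Cyct at chr2:76360454-76360703 and Cycs at chr6:50566570-50566819.
Cyct: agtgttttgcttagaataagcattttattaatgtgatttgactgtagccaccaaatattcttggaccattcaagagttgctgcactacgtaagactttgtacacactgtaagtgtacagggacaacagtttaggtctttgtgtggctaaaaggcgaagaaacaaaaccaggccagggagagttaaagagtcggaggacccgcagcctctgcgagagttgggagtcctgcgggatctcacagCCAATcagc
Cycs: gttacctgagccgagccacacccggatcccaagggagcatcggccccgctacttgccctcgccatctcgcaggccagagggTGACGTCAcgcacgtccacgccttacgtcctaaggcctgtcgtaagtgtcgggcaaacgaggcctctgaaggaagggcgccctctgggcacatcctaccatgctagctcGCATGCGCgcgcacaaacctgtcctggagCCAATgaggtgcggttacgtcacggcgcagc
Searched on both strands were GCATGCGC (the core of the site for the respiratory factor NRF1), CCGGAAG (an ETS site), TGACGTCA (a cyclic AMP response element), CCAAT and TATAAA, none of which contains another. The Cycs window held the NRF1 core, the cyclic AMP element and CCAAT, and the Cyct window held CCAAT alone. GC content was 64% in the Cycs window and 45.6% in the Cyct window.

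Over the 33 members, 5 windows (15.2%) held the NRF1 core, among them Atp5g2, Atp5k, Atp5l and Cox6a1, against 2.26% of 32851 windows of the same length. The ETS letters were in 8 (24.2%, against 6.91% of all windows) and CCAAT in 19 (57.6%, against 33.8%). The cyclic AMP element was in 2 (6.06%, against 1.55%), Cycs and Uqcrfs1, and TATAAA in 2 (6.06%, against 12.4%), Atp5l and Cox7b2. Of the 3 testis forms with a window, Cox6b2, Cox7b2 and Cyct, each held CCAAT and none held the NRF1 core or the ETS letters. The same was true of the common forms Cox7b and Cox8a. Of the other common counterparts, Cox6b1 held CCAAT with the ETS letters and Cycs held CCAAT with the NRF1 core. The median GC content was 54% in the member windows and 52.4% in all windows. A match describes letters in a window, not a site that is used.

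Some member levels are uncertain because of their neighbours and copies. At least 1 stretch of 50 bases recurs in other annotated genes for 27 members and none does for 19, and the share is above 20% in Atp5o, Atp5g2, Cycs, Uqcrb and Cox7c. Exons of 13 members overlap those of another annotated gene. On the opposite strand these are Atp5f1 with Wdr77 and Gm42890, Uqcrc2 with Pdzd9, Cox6a2 with Itgad, Cox4i1 with Emc8, Atp5l with Gm30934, Cox5a with Gm26631, Atp5d with Cbarp, Uqcrb with Gm10767, Cox6c with Vps13b, Atp5j with Gabpa, Atp5a1 with Haus1 and Atp5o with Gm15976 and D430001F17Rik. On the same strand, Atp5g2 overlaps Mir688, and Atp5o overlaps a second annotated gene of the same symbol that was not analysed here. Reads of these neighbours may be included in the member counts.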

How the data were processed

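RNA from 6 mouse testis samples was sequenced as mRNA libraries. The authors deposited whole-number raw counts for each gene, in a separate table for every sample and without normalization. The submitters' processing notes name Trimmomatic, HISAT2, HTSeq and mm10, with no version. Sources used here do not give the annotation release, whether counting used strand, or how multiply mapping reads were handled. Symbols, exon lengths, GC content and protein-coding status came from GENCODE M21 on GRCm38, which matched 51633 of 51826 identifiers.

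Counts were tested with edgeR 4.0.16 in R 4.3.3: quasi-likelihood test, TMM scaling, filterByExpr, all 6 samples, no covariates, two-sided, Benjamini-Hochberg adjusted p under 0.05 over 21518 genes. CPM values are TMM-scaled, and each standard error is the fold change divided by the square root of F. Library trends were removed with offsets from splines in GC content and exon length, with 5 degrees of freedom each, estimated from the 12715 genes whose mean log2 CPM exceeded 2. The procedure was run on simulated counts with known changes, without a trend and with a linear GC trend per library. No trend with exon length was simulated, so that part of the removal was not tested. Replicates differed by more than sampling noise in every pair, with a chi-square of 15.4 to 135 per degree of freedom.

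Library totals of 29274603 to 38703606 make 3 counts equal to 0.0775 to 0.102 CPM. Samples were grouped by labelled genotype. Alternatives were DESeq2 1.42.0 (test and size factors), library size alone, no filter, a filter of 1 CPM in 3 samples, a replicate block, offsets for GC content alone, totals without mitochondrial genes, and each sample left out. The members and lists were chosen with earlier results of these data known. Values per sample are given for the testis forms and their counterparts, and for the 2 lowest and the highest member of each complex by log2 fold change. They are also given for the 2 lowest, the 2 highest and any called member with trends removed. Members with a mean under 1 CPM were left out of these rankings, Cox7a1 among them. From each list of assembly genes the 2 with the smallest p are named.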

Additional observations from a re-analysis of the deposited data

How the results depend on the processing

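The members' median log2 fold change kept its sign and lay between -0.71 and -0.47 under every alternative, and 35 members were negative in all fits that included them. Counts of calls did not hold. Without a filter, 1010 genes, 7 members lower and 0 higher were called, and the DESeq2 Wald test called 3284 genes. Offsets for GC content and length gave 17 genes, 1 member lower and 0 higher, and offsets for GC content alone 8, 1 and 0. Leaving out each sample gave 1 to 3149 genes, 0 to 21 members lower and 0 to 1 higher. The cause was not tested.

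Same-numbered samples of the groups deviated in opposite directions (correlations of -0.483, -0.127 and -0.150 over 13171 genes). Differently numbered samples gave correlations from -0.196 to 0.434. Deviations from a group mean of 3 samples are tied to each other, so these values cannot decide whether the numbers pair the samples. A replicate block gave 21 genes, 0 members lower and 0 higher, and the block with the GC and length offsets 5, 0 and 0. No fit with a block was made for the isoform ratios.

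Some signs turned. The difference in the Cox8c over Cox8a ratio became -0.26 with GC and length offsets and -0.25 with GC offsets, and that of Cyct over Cycs became 0.00443 with GC and length offsets. With GC and length offsets, GC offsets, and the block with offsets, the log2 fold change was -0.19, -0.23 and -0.18 for Atp5f1, 0.23, 0.21 and 0.23 for Cox6a1, -0.20, -0.28 and -0.22 for Cox7b, -0.037, -0.082 and -0.035 for Cycs, and -0.034, -0.12 and -0.031 for Cyct. Cox6b1 was 0.055 and 0.037 with the offsets, and Cox7b was -0.029 with the block. With each sample left out, the Cox7b2 over Cox7b difference ran from -0.30 to 0.11, and the log2 fold change from -0.013 to 0.23 for Atp5f1, -0.59 to 0.028 for Cox6b1, -0.30 to 0.24 for Cox7b, -0.40 to 0.084 for Cox7b2 and -0.028 to 0.33 for Cyct. Of 288 values of the 18 members with values per sample, 196 kept direction and side of the threshold, 61 lost a call, 6 gained one and 25 turned. The depth of 29274603 to 38703606 counts leaves Cox4i2, Cox6a2 and Cox8b near the limit of detection.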
